A study of Rattus norvegicus with 8 samples.

Results

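Collagen hydroxylation and crosslinking enzymes modify newly made collagen chains and tie the finished molecules together. The 10 genes examined were P4ha1, P4ha2 and P4ha3 (prolyl 4-hydroxylase subunits), Plod1, Plod2 and Plod3 (lysyl hydroxylases), Lox, Loxl1 and Loxl2 (lysyl oxidases) and Serpinh1 (a collagen chaperone). A probe belonged to a gene where its transcript accession matched that gene in the RefSeq rat gene table. Matching found probes for 9 of the 10 genes, among 11965 named genes tested. No probe was matched to Lox through this table, so Lox was not analysed here.

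RNA came from vessels of 4 male hypertensive rats, the disease model of the study, and of 4 male Wistar-Kyoto control rats, a normotensive strain, with 1 one-colour Agilent array for each rat. The strain entry of the hypertensive rats also reads Wistar-Kyoto, so the strain of that group is not settled by the labels. The vessel, the age of the rats and any treatment are not given in the sources used here. The comparison asks how vessels of hypertensive rats differ from those of normotensive controls.

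Levels below are log2 processed signal minus the array's 75th percentile, and a change is the hypertensive mean minus the control mean of these levels. The 75th percentile of the signal was 357 to 478 on the hypertensive arrays and 405 to 503 on the control arrays, and 58.7% to 64.1% of probes per array were well above background. Over all 24552 tests, 641 (2.61%) were higher and 470 (1.91%) lower in hypertensive vessels at an adjusted p under 0.05, with limma and Benjamini-Hochberg adjustment. The split depended on scaling: 529 were higher and 586 lower after quantile normalization, and 422 were higher and 652 lower after median centring. The median change of all tests was 0.04. All 9 smooth muscle, all 9 endothelial and all 8 fibroblast markers were well above background on all 8 arrays. In bulk vessel RNA, fewer cells of a type and less RNA per cell cannot be told apart. All 8 arrays shared 1 slide and 1 scan. Each row of arrays on it held 1 group, so row and group cannot be told apart.

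As background, a collagen chain is hydroxylated on proline and lysine in the endoplasmic reticulum before it folds into a triple helix. Prolyl 4-hydroxylase makes the 4-hydroxyproline that keeps the helix stable at body temperature, and its catalytic alpha subunit exists in the forms encoded by P4ha1, P4ha2 and P4ha3. The enzymes encoded by Plod1, Plod2 and Plod3 hydroxylate lysine, which sets the type of crosslink and, for many residues, the site where sugar is attached. Lysyl oxidases act outside the cell on collagen and elastin and start the covalent crosslinks that stiffen an artery wall, and HSP47, encoded by Serpinh1, holds the helix together on its way out of the endoplasmic reticulum. Hydroxylases of this kind need iron, oxygen, 2-oxoglutarate and ascorbate, and lysyl oxidases need copper.

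The promoters of the 3 prolyl 4-hydroxylase genes are shown because the differences within this family, given below, concern them. The windows hold 250 bases before each RefSeq start (GRCr8, plus strand), at chr1:164040614-164040863 for P4ha3, chr20:27844796-27845045 for P4ha1 and chr10:38743644-38743893 for P4ha2. Capitals mark ACGTG or GCGTG on either strand, the core letters of the hypoxia response element that HIF binds.
P4ha3: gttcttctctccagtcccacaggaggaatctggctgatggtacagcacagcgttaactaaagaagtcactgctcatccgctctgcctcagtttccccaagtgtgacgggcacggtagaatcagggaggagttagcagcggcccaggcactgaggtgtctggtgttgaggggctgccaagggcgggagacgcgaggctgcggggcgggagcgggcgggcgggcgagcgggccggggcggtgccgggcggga
P4ha1: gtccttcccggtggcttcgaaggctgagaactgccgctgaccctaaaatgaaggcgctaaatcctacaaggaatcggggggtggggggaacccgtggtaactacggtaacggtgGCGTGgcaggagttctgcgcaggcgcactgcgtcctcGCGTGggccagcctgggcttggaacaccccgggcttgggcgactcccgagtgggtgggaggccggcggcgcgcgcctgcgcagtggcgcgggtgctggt
P4ha2: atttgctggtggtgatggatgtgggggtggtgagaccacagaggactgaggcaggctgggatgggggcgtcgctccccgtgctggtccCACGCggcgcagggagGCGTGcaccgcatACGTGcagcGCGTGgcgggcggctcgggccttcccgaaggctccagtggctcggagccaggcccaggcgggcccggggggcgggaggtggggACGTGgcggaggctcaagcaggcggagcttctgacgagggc
The P4ha3 window held 0 such matches, against 2 in P4ha1 and 5 in P4ha2. Among the other members with a promoter in the table, Plod2 held 4, Plod1 and Plod3 held 1 each, and Loxl1 and Serpinh1 held 0. Of 33469 rat promoter windows of the same length, 36.7% held at least 1 of these motifs. The GC box letters GGGCGG, looked for on both strands, occurred 6 times in the P4ha3 window, 0 times in P4ha1 and 2 times in P4ha2. They occurred 4 times in the Plod1 window, 2 times in Plod2, 1 time each in Plod3 and Serpinh1, and 0 times in Loxl1. Of all windows, 30.5% held them. GC content was 65.6% for P4ha3, 67.6% for P4ha1 and 72.4% for P4ha2, where the median of all windows was 51.2%. A match describes letters and not a bound site.

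Of the 9 genes tested, 1 (P4ha3) was higher in hypertensive vessels and 0 were lower at an adjusted p under 0.05. P4ha3 met the detection filter only through the hypertensive arrays, and the count was 0 where all 8 arrays had to be well above background, since P4ha3 was then not in the tested set. Before adjustment, 3 of the 9 had a p under 0.05, namely P4ha3, Plod2 and P4ha1. Over all 24552 tests, 3006 had such a p with a higher and 1969 with a lower level in hypertensive vessels. Groups were fully apart in 4 of 9 genes, against 13.6% of all tests. Of these 4, P4ha3, P4ha1 and Plod2 had every hypertensive array above every control array, and Plod3 had every hypertensive array below. The median change of the 9 was -0.16, with 4 above and 5 below 0, and 8 of the 9 lay between -0.27 and 0.35. The 8 genes other than P4ha3 were well above background on all 8 arrays.

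**Figure D1:**
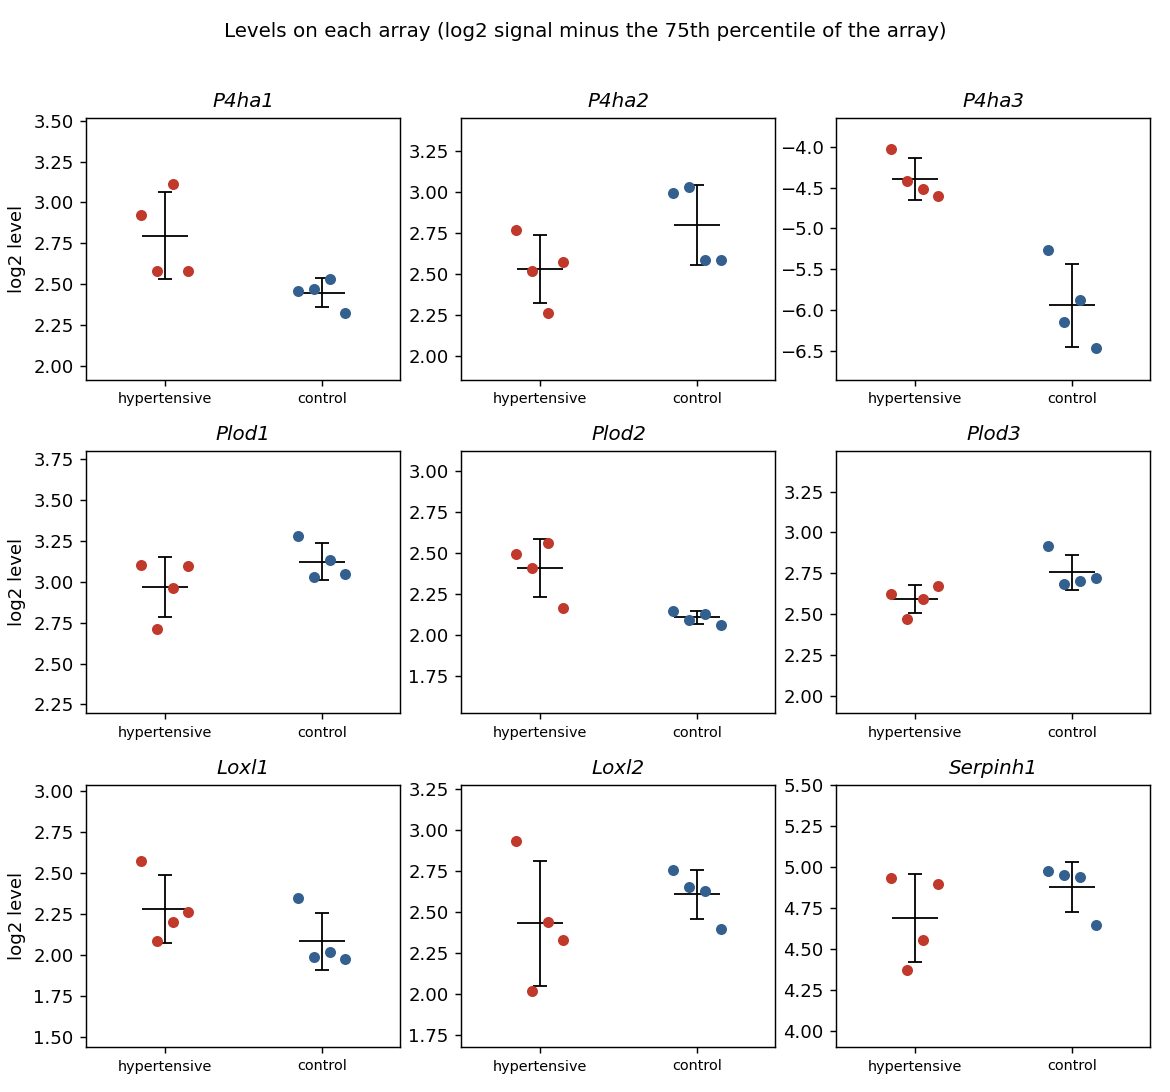
Log2 level of each tested gene on each array (vertical axis, log2 signal minus the array's 75th percentile), hypertensive arrays in red and control arrays in blue; the bar and whiskers are the mean and SD of 4 arrays. The groups do not overlap for P4ha1, P4ha3, Plod2 and Plod3.

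P4ha3 encodes an alpha subunit of prolyl 4-hydroxylase. Its log2 level was -4.03, -4.43, -4.52 and -4.61 on the hypertensive arrays and -5.27, -6.14, -5.87 and -6.46 on the control arrays. Every hypertensive array lay above every control array, and control replicate 1 was the nearest. The means were -4.40 ± 0.26 in hypertensive vessels and -5.94 ± 0.51 in control vessels (SD, n = 4 each). The change was 1.54 ± 0.24 (SE) with a 95% confidence interval of 0.99 to 2.09 and an adjusted p of 0.0093, and 1.54 ± 0.25 (adjusted p 0.024) with no detection filter. Its size depended on how background was handled, as the signals below show, so no fold is given.

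P4ha3 was dim, since its single spot gave a background-subtracted signal of 21.9, 18.2, 17.0 and 19.6 intensity units on the hypertensive arrays and 12.3, 5.74, 8.58 and 5.10 on the control arrays. The median signal of the spot before subtraction was 41.5, 40, 40 and 42 in hypertensive arrays and 32.5, 28, 32 and 28 in control arrays. The local background was 21, 19, 19 and 19 on the hypertensive arrays and 19, 18, 18 and 17 on the control arrays. The hypertensive signals were thus low too. P4ha3 was well above background on 4 of 4 hypertensive arrays and on 1 of 4 control arrays. So 3 of its control values lie near the limit of detection. With normexp background correction and an offset of 50, which shrinks changes of dim probes by construction, its change was 0.38 ± 0.067 (SE; adjusted p 0.0067).

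P4ha1, the most widely expressed alpha subunit and a known hypoxia-responsive gene, had log2 levels of 2.92, 2.58, 3.11 and 2.58 in hypertensive vessels and 2.46, 2.47, 2.54 and 2.33 in control vessels. The hypertensive arrays all lay above the control arrays, and replicates 2 and 4 only narrowly so. Its change was 0.35 ± 0.13 (SE), or 1.27-fold, with a 95% confidence interval of 0.05 to 0.65 and an adjusted p of 0.180, which missed the threshold. P4ha2, the other alpha subunit, had log2 levels of 2.77, 2.52, 2.26 and 2.57 in hypertensive vessels and 2.99, 3.03, 2.59 and 2.58 in control vessels. The groups overlapped. Its change was -0.27 ± 0.15, with a 95% confidence interval of -0.60 to 0.07 and an adjusted p of 0.357.

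Plod2 encodes the lysyl hydroxylase known for acting on the telopeptides of collagen. Its log2 level was 2.50, 2.41, 2.56 and 2.16 in hypertensive vessels and 2.15, 2.09, 2.13 and 2.06 in control vessels. All hypertensive arrays were above all control arrays, with hypertensive replicate 4 close to the highest control. The change was 0.30 ± 0.10 (SE), or 1.23-fold, with a 95% confidence interval of 0.08 to 0.53 and an adjusted p of 0.130. Without hypertensive replicate 4 it was 0.38 ± 0.079 with an adjusted p of 0.033, the single alternative of 18 in which a second gene passed. In that array, the white adipocyte markers averaged 1.91 above their mean over the 8 arrays (log2). Hypertensive replicates 1 to 3 lay at -0.95 to -0.06 and control arrays at -0.59 to 0.46. Mast cell (0.79), lymphocyte (0.27), macrophage (0.17) and fibroblast (0.12) markers were also highest there among the hypertensive arrays. Smooth muscle markers (-0.11) were lowest there, and the other cell marker lists were at neither extreme. Leaving that array out raised the number of all tests that passed from 1111 to 1473. What part these markers have in the Plod2 result was not tested.

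Plod3 encodes a lysyl hydroxylase that also transfers sugars to hydroxylysine. Its log2 level was 2.62, 2.47, 2.59 and 2.68 in hypertensive vessels and 2.92, 2.68, 2.71 and 2.72 in control vessels. Each hypertensive array lay below each control array by a narrow margin. The change was -0.17 ± 0.087, with a 95% confidence interval of -0.36 to 0.03 and an adjusted p of 0.326. Plod1, which hydroxylates lysine in the helical part of the chain, had log2 levels of 3.10, 2.71, 2.96 and 3.09 in hypertensive vessels and 3.28, 3.03, 3.13 and 3.05 in control vessels. Hypertensive replicate 2 was the lowest of the 8 arrays and the groups overlapped. The change of Plod1 was -0.16 ± 0.11, with a 95% confidence interval of -0.41 to 0.09 and an adjusted p of 0.469.

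Loxl1, a lysyl oxidase that binds elastin and is needed for elastic fibre upkeep in mice, had log2 levels of 2.57, 2.09, 2.20 and 2.27 in hypertensive vessels and 2.35, 1.99, 2.02 and 1.98 in control vessels. The highest array was in the hypertensive group, and control replicate 1 stood above 3 of the 4 hypertensive arrays. The change was 0.20 ± 0.13, with a 95% confidence interval of -0.10 to 0.50 and an adjusted p of 0.432. Loxl2, whose enzyme oxidises collagen IV of basement membranes, had log2 levels of 2.93, 2.02, 2.44 and 2.33 in hypertensive vessels and 2.75, 2.65, 2.63 and 2.40 in control vessels. The hypertensive arrays spanned both the highest and the lowest of the 8 values. The change was -0.18 ± 0.18, with a 95% confidence interval of -0.59 to 0.23 and an adjusted p of 0.619.

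Serpinh1 had log2 levels of 4.93, 4.37, 4.55 and 4.89 in hypertensive vessels and 4.97, 4.95, 4.94 and 4.65 in control vessels on its brighter probe. Hypertensive replicates 2 and 3 were the lowest arrays, and the groups overlapped. The change was -0.19 ± 0.14, with a 95% confidence interval of -0.52 to 0.14 and an adjusted p of 0.505. The second probe gave levels of 3.85, 3.30, 3.53 and 3.84 in hypertensive vessels and 4.005, 3.91, 3.95 and 3.65 in control vessels. Its arrays fell in much the same pattern, and its change was -0.25 ± 0.14 (adjusted p 0.383 over 27822 probes).

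**Figure D2:**
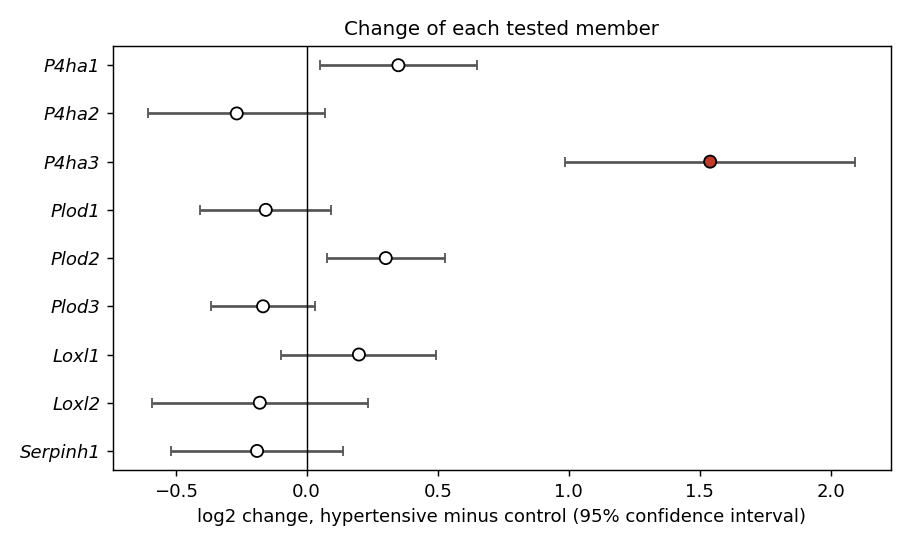
Change of each tested gene, hypertensive minus control (horizontal axis, log2), with 95% confidence intervals; the filled point passed an adjusted p under 0.05. P4ha3, at 1.54, is the filled point, and the other 8 lie between -0.27 and 0.35.

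The same arrays tended to be extreme for several genes. Hypertensive replicate 1 was the highest hypertensive array for 6 of the 9 genes, and hypertensive replicate 2 the lowest for 5 (Plod1, Plod3, Loxl1, Loxl2 and Serpinh1). For P4ha1, P4ha3 and Plod2 the lowest hypertensive array was replicate 4. Control replicate 1 was the highest control array for 7 genes and control replicate 4 the lowest for 7. The 9 genes therefore do not give independent readings of the groups.

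Differences between genes of a family on the same array do not depend on the array's scaling. A difference between 2 probes is no ratio of transcript levels, but its shift between groups shows whether the genes changed unequally. For 6 of 7 pairs the groups did not overlap, and each of these had a two-sided exact permutation p of 0.0286, the smallest that 35 divisions of the arrays allow. With 4 arrays per group, this p follows from the lack of overlap and adds nothing to it. The p-values are unadjusted, and the pairs share genes. The pairs with P4ha3 rest partly on control values near the limit of detection. Over all pairs of named genes, 15.4% did not overlap.

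The P4ha3 minus P4ha2 difference was -6.93 ± 0.18 in hypertensive vessels and -8.73 ± 0.44 in control vessels (SD, n = 4 each), a shift of 1.81 that became 0.69 under normexp correction, where the groups still did not overlap. For P4ha3 minus P4ha1 it was -7.19 ± 0.31 in hypertensive vessels and -8.38 ± 0.46 in control vessels, a shift of 1.19 that became 0.07, with overlapping groups, under the same correction. Both shifts rest on P4ha3 values not well above background in 3 of 4 control arrays. P4ha1 and P4ha2 went in opposite directions. Their difference was 0.15, 0.06, 0.85 and 0.01 in hypertensive vessels and -0.53, -0.56, -0.05 and -0.26 in control vessels, a shift of 0.62. P4ha1 stood higher relative to P4ha2 in every hypertensive array than in any control array, though neither gene passed on its own.

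Among lysyl hydroxylases, Plod2 stood higher relative to both of the others in hypertensive vessels. Plod2 minus Plod1 was -0.60, -0.30, -0.40 and -0.93 in hypertensive vessels and -1.13, -0.94, -1.004 and -0.99 in control vessels, a shift of 0.46. Hypertensive replicate 4 again lay next to the controls. Plod2 minus Plod3 was -0.13, -0.06, -0.03 and -0.51 in hypertensive vessels and -0.77, -0.59, -0.57 and -0.66 in control vessels, a shift of 0.47. The shift of Plod3 minus Plod1 was -0.01 and the groups overlapped (exact permutation p 0.886). Loxl2 minus Loxl1 was 0.36, -0.07, 0.23 and 0.06 in hypertensive vessels and 0.40, 0.66, 0.61 and 0.42 in control vessels, a shift of -0.38. Every hypertensive value was below every control value, with replicate 1 of each group closest.

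**Figure D3:**
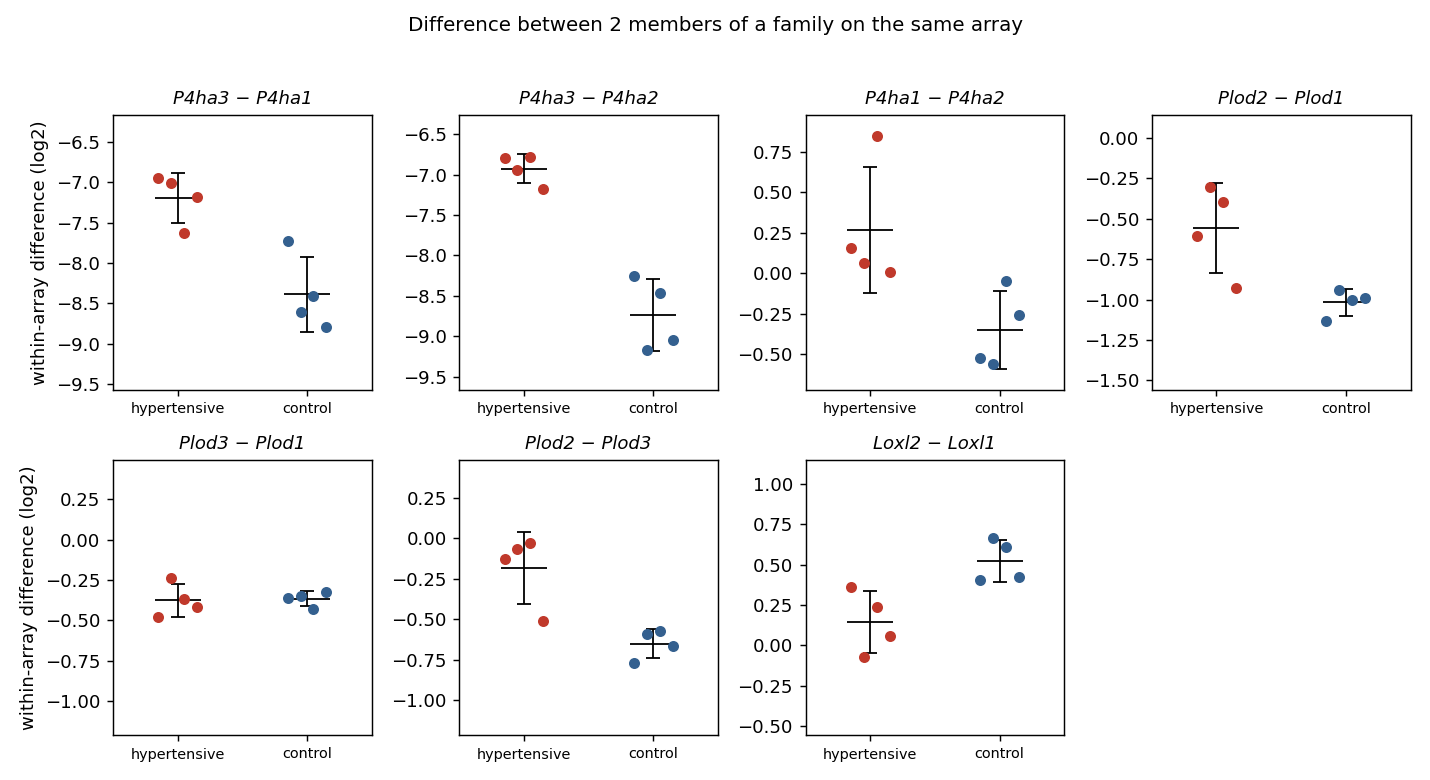
Within-array difference between members of a family (vertical axes, log2), hypertensive arrays in red and control arrays in blue, with mean and SD of 4 arrays. The groups are apart for 6 of the 7 pairs and overlap for Plod3 minus Plod1.

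The substrates and partners of these enzymes were set beside them. Of 13 tested collagen chains 0 passed in either direction, and 10 changes were below 0 with a median of -0.27, against a median of 0.04 over all tests. Col1a1, a chain of the main fibrillar collagen, changed by -0.95 ± 0.45 (SE, adjusted p 0.277). Col1a2, the other chain of that collagen, changed by -0.03 ± 0.14 (adjusted p 0.930). Col14a1, a fibril-associated collagen, changed by -0.45 ± 0.21 (adjusted p 0.274). Other collagen modification and folding genes had 18 tested, of which 0 passed and 15 were below 0, with a median of -0.29. Under normexp correction 5 passed as lower, named here after their values were seen as Colgalt1, Fkbp10, P3h2, P3h3 and Sec24d. For P3h2, a prolyl 3-hydroxylase, the change was -0.83 ± 0.20 (adjusted p 0.052), and it passed as lower in 6 of 18 alternatives. Fkbp10, a collagen prolyl isomerase known to act with lysyl hydroxylase, changed by -0.44 ± 0.12 (adjusted p 0.081).

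Of 12 procollagen processing and fibril assembly genes 0 passed, with a median of -0.08. The small proteoglycans Fmod and Lum, which bind collagen fibrils, changed by -0.60 ± 0.16 (adjusted p 0.074) and -0.45 ± 0.13 (adjusted p 0.103). Fmod passed as lower in 3 of 18 alternatives and Lum in 2, normexp correction among them for both. Of 8 elastic fibre substrates and partners of lysyl oxidases 0 passed, with a median of -0.18; Mfap4, a microfibril-associated protein, changed by -0.44 ± 0.22 (adjusted p 0.295) and Fbln1, a fibulin, by -0.21 ± 0.11 (adjusted p 0.341). Of 8 cofactor supply genes 0 passed, with a median of -0.17. Tfrc, the transferrin receptor for iron uptake, changed by -0.44 ± 0.14 (adjusted p 0.127) and Slc23a2, an ascorbate transporter, by -0.21 ± 0.08 (adjusted p 0.189).

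P4ha1, P4ha2 and Plod2 are known hypoxia targets. Of 19 tested hypoxia response genes 0 passed, with 8 above and 11 below 0 and a median of -0.05. Bhlhe40, a transcriptional repressor, changed by -0.74 ± 0.25 (adjusted p 0.137) and Mxi1, a MYC antagonist, by 0.28 ± 0.11 (adjusted p 0.192). What part hypoxia has in the levels of P4ha1, P4ha2 and Plod2 was not tested. Of 9 tested TGF-beta ligands, receptors and response genes 0 passed, with a median of -0.16. Tgfb3 changed by -0.25 ± 0.12 (adjusted p 0.272) and the receptor Tgfbr2 by -0.16 ± 0.10 (adjusted p 0.427).

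**Figure D4:**
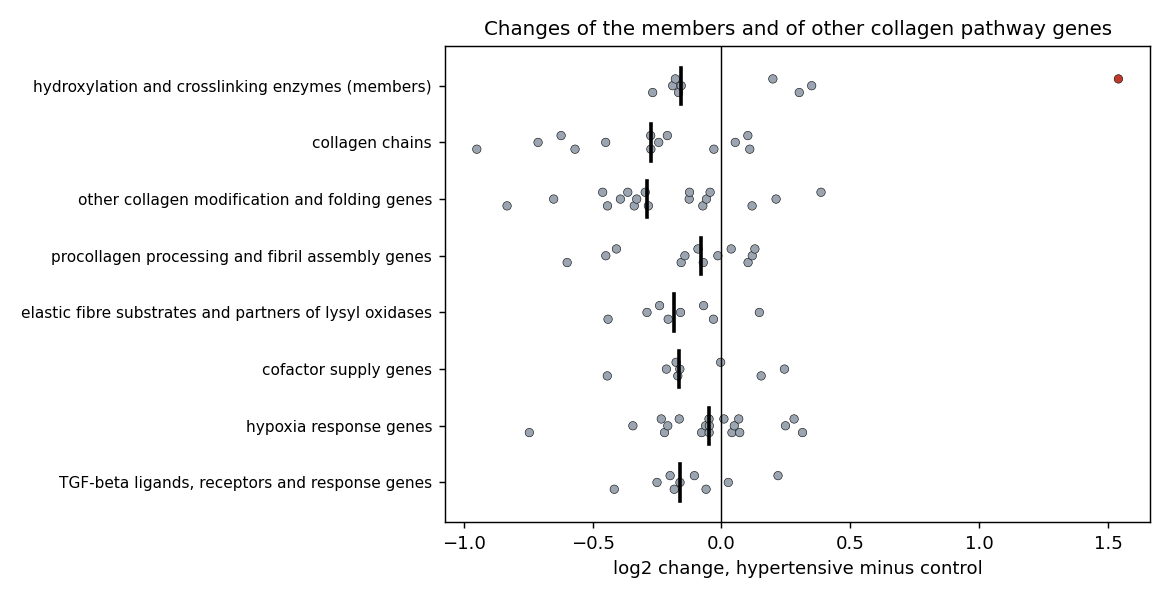
Change of each tested gene (horizontal axis, log2, hypertensive minus control) in the hydroxylation and crosslinking genes and in 7 related lists; black ticks are medians and red marks an adjusted p under 0.05. P4ha3 is the single red point, and the medians of the lists lie between -0.29 and -0.05.

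Markers of the cells a vessel sample may hold were read beside P4ha3. Of 9 smooth muscle markers 0 passed, with a median change of 0.08 and a summed linear level (signal over the 75th percentile) of 505 to 728 in hypertensive and 486 to 665 in control arrays. The 9 endothelial markers (median 0.0051, with 5 above and 4 below 0) and 8 fibroblast markers (median -0.03) also had 0 passing. Over the alternatives, up to 1 smooth muscle marker and 1 endothelial marker passed as higher. Up to 2 endothelial markers and 1 fibroblast marker passed as lower. All 8 mast cell markers were above 0, with 0 passing (0 to 1 over the alternatives) and a median of 0.74. Their summed level was 8.06 to 14.9 in hypertensive and 4.70 to 7.75 in control arrays, which do not overlap. That sum leans on Cma1, the brightest of them and the 1 marker of 8 whose groups were apart. The mean of their centred log2 levels was -0.0080 to 0.79 in hypertensive and -0.70 to -0.036 in control arrays. Of 6 nerve and Schwann cell markers tested 5 were above 0 and 0 passed, with 0 to 2 passing as higher over the alternatives. The median was 0.38 and the summed level 6.28 to 8.68 in hypertensive and 4.22 to 6.14 in control arrays, again without overlap. The mean of their centred log2 levels did overlap, at -0.0014 to 0.34 in hypertensive and -0.53 to 0.028 in control arrays. What part the cell markers have in the P4ha3 result was not tested.

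Of 8 macrophage markers 7 were below 0 and 1 passed (Mrc1, a mannose receptor, -0.51 ± 0.12, adjusted p 0.0496). The count of lower macrophage markers differed in 14 of 18 alternatives, with a range of 0 to 5. It was 0 with no detection filter and 5 without hypertensive replicate 4. The count of higher macrophage markers was 0 to 1 over the alternatives. Their summed level was 114 to 168 in hypertensive and 97.4 to 123 in control arrays, and Lyz2, a lysozyme gene and the 1 marker above 0, had mean log2 levels of 6.90 in hypertensive and 6.37 in control vessels (change 0.53 ± 0.14, adjusted p 0.080). All 6 tested lymphocyte markers were below 0 and 0 passed (median -0.43; 0 to 2 passed as lower over the alternatives). Of 8 white adipocyte markers 0 passed (median 0.24), with a summed level of 17.6 to 82.6 in hypertensive and 20.1 to 33.8 in control arrays. Of 6 tested skeletal and cardiac muscle markers, Myh1, a fast myosin, was higher (2.28 ± 0.50, adjusted p 0.0397) and Mb, myoglobin, lower (-0.54 ± 0.12, adjusted p 0.0377). No muscle marker passed as higher in 10 of 18 alternatives and none as lower in 7, and no detection filter gave 0 in both directions. Their part in the changes above was not tested.

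The named genes most like P4ha3 were found by the root mean square difference of centred log2 levels over the 8 arrays, among 11964 other genes with a median difference of 0.853. They were Tpd52l3 (0.195), Cbln2 (0.275), Prg4 (0.308), Gldn (0.336) and Ltbp2 (0.339). Since likeness was scored over both groups, genes that were higher in hypertensive vessels by a similar amount rank first. Their changes, given as a description, were 1.33 ± 0.21 for Tpd52l3, 1.31 ± 0.17 for Cbln2, 1.38 ± 0.28 for Prg4, which encodes lubricin, 1.47 ± 0.12 for Gldn and 1.31 ± 0.31 for Ltbp2, a matrix protein of the latent TGF-beta binding family. Gldn passed under all 19 settings tried, Prg4 under 13 and Ltbp2 under 11. Tpd52l3 and Cbln2 passed under all 18 settings that tested them, with their smallest changes at 0.45 and 0.44.

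**Figure D5:**
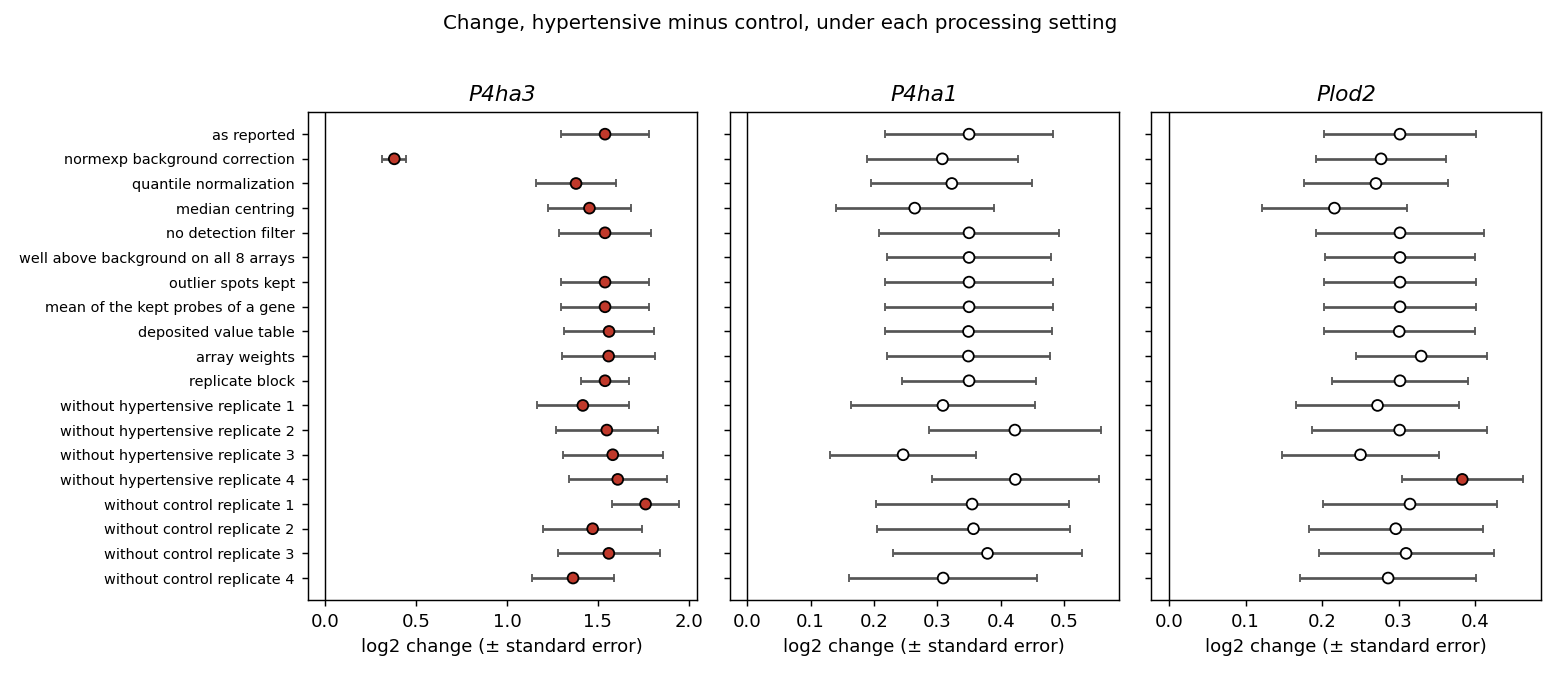
Change of P4ha3, P4ha1 and Plod2, hypertensive minus control (horizontal axes, log2, with standard error), as reported and under each alternative; filled points passed an adjusted p under 0.05. P4ha3 is filled wherever it was tested and lowest at 0.38 with normexp correction, P4ha1 is never filled, and Plod2 is filled only without hypertensive replicate 4.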

How the data were processed

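RNA was extracted with Trizol and 100 ng was labelled with Cy3, per the labels' protocols. The deposited scanner files hold spot intensity values, already background-subtracted by Agilent Feature Extraction, version 10.7.1.1 per the file headers and 12.1.1.1 per the submitters' processing notes. The authors' deposited value table holds a linear ratio close to the intensity over each array's 75th percentile; it is not centred on genes and has no direction of its own. Its column medians were 0.101, 0.093, 0.097 and 0.090 in hypertensive and 0.092, 0.089, 0.086 and 0.091 in control replicates 1 to 4. It served as an alternative.

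Here, log2 intensity without outlier spots was averaged per probe (45598 probes) and the array's 75th percentile subtracted. Probes well above background on at least 3 of 4 arrays of a group (27822) were kept, and a gene was read by its brightest kept probe. Groups, taken from sample titles, were compared with limma 3.58.1 in R 4.3.3, with Benjamini-Hochberg adjustment over 24552 tests; the procedure was tested on simulated data. Accessions matched without version named 21229 probes (46.6%) in the RefSeq table (GRCr8), which also gave the promoters. The number of arrays limits the precision, and the limma p-values set the group difference against the spread between rats of a group.

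Pairs were tested by exact permutation without adjustment over the list; 7 pairs were possible without Lox. Named genes were all 10 members, those of each pathway list that passed or otherwise the 2 with the smallest p, and the 5 most like a member that passed. Of the cell marker lists those that passed are named. Col1a2, Cma1 and Lyz2 were named after their values were seen. The members, lists and tests were chosen with earlier results of these data known. Alternatives covered background correction, normalization, the detection filter, spot flags, the probe of a gene, the deposited table, array weights, a replicate block and leaving out each array. The normexp alternative used median spot signals and was added after seeing the data.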

Additional observations from a re-analysis of the deposited data

Results flagged for a closer look

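Among the 18 groups of 4 arrays tested for a lone array (9 genes in each group), 2 held one by Dixon's test, where chance gives about 5%. For Loxl1, control replicate 1 was at a log2 level of 2.35, against 1.98 to 2.02 in the other control arrays, and its gap took 0.885 of the control range. For Serpinh1, control replicate 4 was at 4.65, against 4.94 to 4.97 in the other control arrays, with a gap of 0.883 of the range.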

How the results depend on the processing

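No change of the 9 genes reversed sign in 18 alternatives (17 for P4ha3). P4ha3 passed in all 17, with changes of 0.38 to 1.76 and adjusted p of 0.00286 to 0.0328. All these fits read P4ha3 from the same dim spot, so they are not independent support for its change. The count of higher genes was 0 with probes above background on all 8 arrays, where P4ha3 was not tested, and 1 to 2 when an array was left out, with 2 without hypertensive replicate 4. Plod3 minus Plod1 changed sign when hypertensive replicate 1 (0.0231) or 4 (0.00377) or control replicate 4 (0.00335) was left out, within -0.056 to 0.023 over all 8 such fits; the cause was not tested. P4ha3 minus P4ha1 overlapped under normexp correction, at 0.072. Over all tests, 1111 passed, against 1857 with normexp correction, 641 with no detection filter, 675 with the replicate block and 629 to 1473 without 1 array. Deviations of same-numbered arrays of the groups had correlations of 0.206, 0.115, -0.0035 and -0.148 for replicates 1 to 4. Replicates 1 and 2 correlated best with their own number, and replicates 3 and 4 did not. Such correlations cannot settle whether the numbers pair the rats, and the main fit did not pair them. With the replicate block, P4ha3 changed by 1.54 ± 0.13 (adjusted p 0.0079), and it changed no call among the 9 genes. Control signals of P4ha3 near background and 4 arrays per group set the precision.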
